A study of Mus musculus with 82 samples.

Results

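The 7 genes described here are *Fgf4*, *Fgfr1*, *Spry2*, *Spry4*, *Dusp6*, *Etv4* and *Etv5*, which belong to the FGF and ERK pathway. They were chosen by name, with earlier results of these data known, and are 7 of the 24755 RefSeq genes counted. Nascent RNA was measured in V6.5 mouse embryonic stem (ES) cells, a single line derived from a cross of C57BL/6 and 129/sv mice, which was grown on gelatin with serum and leukaemia inhibitory factor. No library carried a genetic change or a drug treatment, and the groups differ in the assay and in part in the experiment number. In each assay, RNA polymerases that were engaged on DNA in isolated nuclei added a propargyl nucleotide to their RNA, and the RNA was joined to DNA by click chemistry, so that a read marks the RNA 3′ end and thus the place of a polymerase. AGTuC (2 libraries) ran this reaction in bulk nuclei opened with a high concentration of the detergent sarkosyl. inAGTuC (4 libraries) used a low concentration that left the nuclei intact, with many nuclei per well, and scGRO–seq (76 libraries) sorted single nuclei into wells. Of the scGRO–seq libraries, 35 from 10 batches were used, with 2526 kept cells.

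FGF4 is a ligand that ES cells secrete and that acts on the same cells through receptors such as FGFR1, a receptor tyrosine kinase. The receptor activates RAS, RAF, MEK and ERK in turn. ERK activity induces genes that damp the pathway, among them the Sprouty proteins and DUSP6, a phosphatase that acts on ERK, and genes for ETS transcription factors, among them ETV4 and ETV5. In ES cells grown with serum this pathway is known for driving the exit from the naive pluripotent state.

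Sense UMIs, that is deduplicated reads on the strand of the gene, were counted in the first 500 bp of each gene (promoter) and in the body, which leaves out 500 bp at both ends. Libraries held between 2231583 and 4755258 UMIs in AGTuC and between 622100 and 1461197 UMIs in inAGTuC, and the scGRO–seq batches between 222963 and 4919628 UMIs in kept cells. Kept cells had a median of 3421 UMIs, with a range of 1177 to 51392. Of the 254 cell barcodes of kept cells, 226 occurred in several of the 35 libraries, and a cell was therefore a barcode within 1 library. Reads opposite to the annotated gene in all bodies amounted to 0.198 to 0.203 of sense reads in AGTuC, 0.240 to 1.12 in inAGTuC and 0.198 to 0.532 in scGRO–seq. One library stood apart: inAGTuC 3 held more antisense than sense reads (1.12), against 0.240 to 0.479 in the other inAGTuC libraries. Of 12 ES cell markers, 10 had a body to count, and all 10 had more sense than antisense UMIs in each assay. Of 8 fibroblast markers, *Col1a2*, *Col3a1*, *Fap* and *Dcn* had no UMI in AGTuC, and 3, 4 and 2 had more sense than antisense UMIs in AGTuC, inAGTuC and scGRO–seq, respectively. Both AGTuC libraries carry an experiment number that no other sample has (Exp125c), so that batch and assay cannot be told apart for AGTuC, and their counts over 12560 gene bodies differed by a chi-square of 1.14 per degree of freedom, against 5.25 to 17.1 between inAGTuC libraries. The inAGTuC libraries 1 and 2 share the number Exp208 with a scGRO–seq batch, so that 5 of the 16 samples compared share a number with another, and each comparison was also run with the experiment number as a random block. Nothing in the labels says that libraries came from separate cultures, and p-values then measure the spread between these samples, which may be technical.

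The sequences around the starts are shown first because AGTuC reads were dense just after the starts. RefSeq windows on GRCm38.p6 that run from 250 bases before to 50 bases after a start were held for 4 of the 7 genes, *Fgf4*, *Spry2*, *Dusp6* and *Etv5*, the last with 2 starts. They are printed 5′ to 3′ on the strand of the gene, with each GGAA, the core of ETS factor binding sites, and its other strand TTCC in capitals.
Fgf4, chr7:144861136-144861435, plus strand: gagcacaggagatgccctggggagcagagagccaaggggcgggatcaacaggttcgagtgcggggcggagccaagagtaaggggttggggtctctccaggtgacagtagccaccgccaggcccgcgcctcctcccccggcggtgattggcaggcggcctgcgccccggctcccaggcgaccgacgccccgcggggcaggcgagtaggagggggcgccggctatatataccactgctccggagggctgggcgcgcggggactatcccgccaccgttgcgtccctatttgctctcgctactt
Spry2, chr14:105896770-105897069, minus strand: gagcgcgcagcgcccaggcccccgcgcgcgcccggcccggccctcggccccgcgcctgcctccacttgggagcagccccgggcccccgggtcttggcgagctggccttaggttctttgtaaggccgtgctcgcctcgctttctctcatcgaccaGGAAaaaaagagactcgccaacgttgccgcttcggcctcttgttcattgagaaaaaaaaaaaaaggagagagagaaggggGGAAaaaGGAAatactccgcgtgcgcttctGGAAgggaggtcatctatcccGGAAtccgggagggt
Dusp6, chr10:99262981-99263280, plus strand: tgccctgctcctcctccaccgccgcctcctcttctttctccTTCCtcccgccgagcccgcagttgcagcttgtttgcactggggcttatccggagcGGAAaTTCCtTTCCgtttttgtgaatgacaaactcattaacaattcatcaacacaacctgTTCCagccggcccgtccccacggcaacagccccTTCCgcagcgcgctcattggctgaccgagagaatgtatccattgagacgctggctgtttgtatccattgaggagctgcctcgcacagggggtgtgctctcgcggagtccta
Etv5, chr16:22439521-22439820, minus strand: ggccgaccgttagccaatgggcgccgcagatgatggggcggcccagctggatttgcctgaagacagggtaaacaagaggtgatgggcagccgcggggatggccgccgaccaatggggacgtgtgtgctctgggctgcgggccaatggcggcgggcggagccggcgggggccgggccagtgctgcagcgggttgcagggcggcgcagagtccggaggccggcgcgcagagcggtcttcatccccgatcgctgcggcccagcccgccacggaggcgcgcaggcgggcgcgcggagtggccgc
Etv5, chr16:22438319-22438618, minus strand: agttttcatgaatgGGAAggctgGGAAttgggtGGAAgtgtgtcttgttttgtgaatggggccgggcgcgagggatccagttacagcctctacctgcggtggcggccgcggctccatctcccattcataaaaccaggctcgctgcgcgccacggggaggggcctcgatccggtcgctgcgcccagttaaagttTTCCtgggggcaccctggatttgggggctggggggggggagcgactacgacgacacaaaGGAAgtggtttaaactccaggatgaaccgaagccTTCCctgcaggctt

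These letters occurred 5 times in the *Spry2* window, 6 times in that of *Dusp6* and 6 times in the inner window of *Etv5*, and not at all in the windows of *Fgf4* and of the outer *Etv5* start. Among all 32851 windows of this length, 96.0% held GGAA or TTCC, with a median of 3 matches. The longer motif CCGGAA or TTCCGG was found once, in *Spry2*, and in 14.9% of all windows. TATAAA or TTTATA occurred in 13.6% of all windows and the AP-1 motif TGACTCA or TGAGTCA in 5.20%, and in none of the 5 windows shown. Exact letters alone were searched, so that related sequences are not counted, such as the run tatatata before the start of *Fgf4*. GC content ran from 57.3% (*Dusp6*) to 74% (outer *Etv5* start), against a median of 52.7% over all windows. A match is a description of letters and does not show binding.

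In AGTuC, polymerases were dense just after the starts of the 7 genes. Over the 7 genes together, 485 sense UMIs lay in the first 100 bp and 273 in the next 100 bp, and the count then fell to 124 in the last 100 bp of the promoter. The same 100 bp bins held 24, 23 and 11 UMIs in inAGTuC and 34, 24 and 11 UMIs in scGRO–seq. These are raw counts, which are not scaled to the depth of an assay. They are read along the bins of an assay and not between assays.

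**Figure D1:**
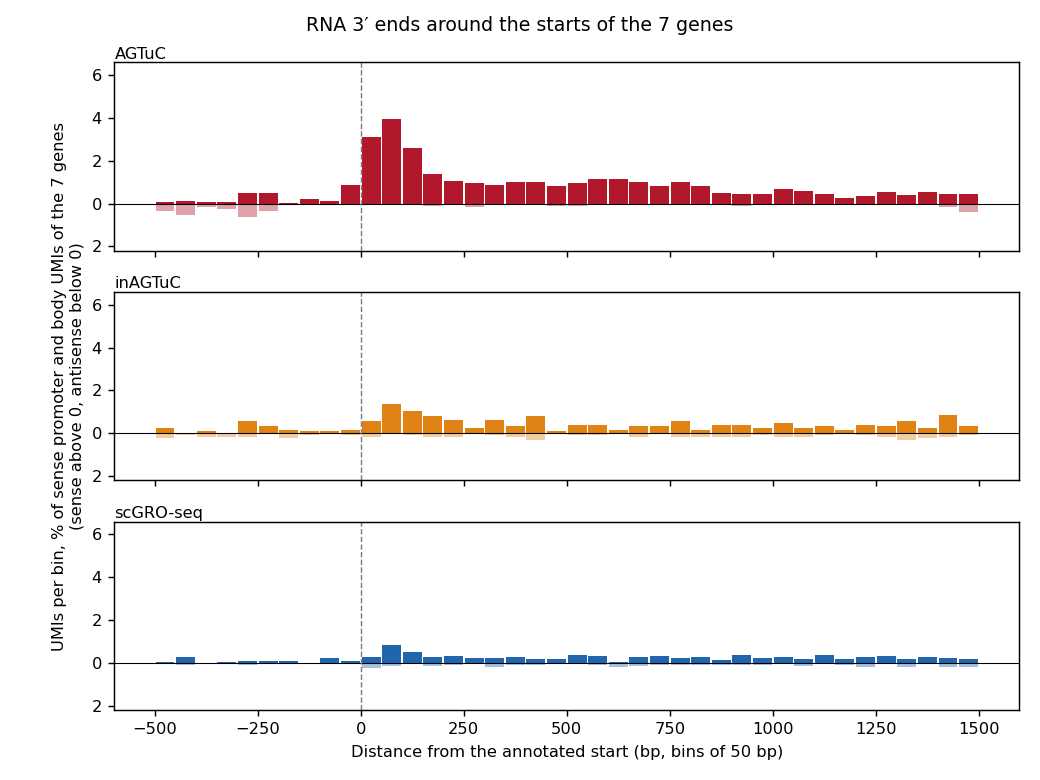
Sense (above 0) and antisense (below 0) UMIs in bins of 50 bp around the annotated starts of the 7 genes together, as % of the sense promoter and body UMIs of the 7 genes in each assay; the x axis gives the distance from the start in bp and the dashed line marks the start. The sense bars of AGTuC are highest in the bins just after the start. In raw counts, not scaled to depth, the first 100 bp hold 485 UMIs in AGTuC, 24 in inAGTuC and 34 in scGRO–seq.

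The place of the AGTuC maximum differed between genes. *Fgf4* (124 of 254 promoter UMIs), *Spry4* (102 of 153), *Etv5* (108 of 192) and *Fgfr1* (74 of 133) had more UMIs in the first 100 bp than in any other 100 bp of the promoter, whereas *Dusp6* (72 of 125) and *Etv4* (72 of 159) had the highest count in the next 100 bp. *Spry2* had 38 UMIs in its first 100 bp and 92 sense UMIs in the 500 bp upstream of the annotated start. Sense UMIs upstream also reached 55 at *Etv5* and were 1 to 10 at the other 5 genes. These upstream UMIs lie outside the promoter window, so that the promoter shares given below leave them out. At *Spry2* the upstream 500 bp held 13 sense UMIs in inAGTuC and 16 in scGRO–seq, against 3 and 9 in the promoter. At *Etv5* they held 1 and 2.

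Each gene had a single position with most AGTuC reads in this region. The bases around these positions follow, 5′ to 3′ on the strand of the RNA and read from GRCm38, with the position of the RNA 3′ ends in capitals.
Fgf4, chr7:144861430-144861450, plus strand: ctacttaggtCtgtgcgcagc
Fgfr1, chr8:25518826-25518846, plus strand: gcggggctctCcgctgcgggc
Spry2, chr14:105896784-105896804, minus strand: gaagggaggtCatctatcccg
Dusp6, chr10:99263361-99263381, plus strand: attaagagccGctagactttt
Etv4, chr11:101785156-101785176, minus strand: ttagttgtgtCatcccccggg
Etv5, chr16:22439557-22439577, minus strand: gatcgctgcgGcccagcccgc

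These stacks lay 54 bp after the start of *Fgf4* (22 UMIs), 77 bp after that of *Fgfr1* (13), 25 bp after that of *Spry2* (6), 140 bp after that of *Dusp6* (10), 144 bp after that of *Etv4* (9) and 3 bp after the outer start of *Etv5* (16). The stack of *Spry4* lay 46 bp after its start, with 12 UMIs. These positions were chosen as the AGTuC maxima, so that counts there are no comparison between assays. All of these positions were in annotated exons.

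Whether the promoter took a larger share of the gene's reads in one assay than in another was compared within samples, which cancels differences in level. *Etv5* was the single gene called higher in AGTuC than in inAGTuC, and *Etv5*, *Etv4* and *Fgfr1* were called higher in AGTuC than in scGRO–seq, on the log2 ratio of promoter to body UMIs. No member was called lower, and none was called between inAGTuC and scGRO–seq. Of these calls, that of *Etv5* over scGRO–seq alone held with the experiment number as a random block, as given below. The test was limma (voom) over 15609 genes with Benjamini–Hochberg adjustment, with 2 AGTuC libraries, 4 inAGTuC libraries and 10 scGRO–seq batches. The 1 of 7 members called higher than in inAGTuC stood beside 38% of all genes called higher (1.68% lower), and the 3 of 7 called higher than in scGRO–seq beside 41.6% (3.72% lower), so that the members' counts were below and near the background. The median log2 difference was 1.30 for the members against 2.04 for all genes in the first comparison, and 1.45 against 1.87 in the second. Both comparisons use the same AGTuC libraries. voom adds a small constant to each count, so that the sizes of these differences depend on it where samples hold no promoter UMI.

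*Etv5*, an ETS factor, had 8.72% and 9.97% of its promoter and body UMIs in the promoter in AGTuC 1 and 2. The shares were 0%, 0.952%, 2.60% and 0.498% in inAGTuC 1 to 4, and ran from 0% over a median of 0.622% to 2.08% in the scGRO–seq batches. Both AGTuC libraries thus lay above every other sample. The log2 ratio of promoter to body was higher in AGTuC by 2.90 ± 0.93 (SE, adjusted p = 0.0136, limma) than in inAGTuC and by 2.93 ± 0.81 (adjusted p = 0.00388, limma) than in scGRO–seq. The promoter counts behind these shares were 56 and 136 UMIs in AGTuC, 4 UMIs over all inAGTuC libraries and 15 over all scGRO–seq batches.

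*Etv4*, the other ETS factor, had 18.9% and 24.1% of its UMIs in the promoter in AGTuC. In inAGTuC it had 0%, 6.67%, 0% and 7.32%, and in scGRO–seq the batches ran from 0% (median 0%) to 7.69%. The AGTuC libraries again lay above all other samples, and 4 promoter UMIs were counted in each of the other assays. The difference was 2.65 ± 0.87 against scGRO–seq (adjusted p = 0.0123, limma) and 1.94 ± 0.99 against inAGTuC (adjusted p = 0.105, limma), the latter not called. Pooled over samples, the promoter density over the body density was 8.39 in AGTuC, 1.64 in inAGTuC and 0.476 in scGRO–seq. The pooled ratios lie further apart than the fitted differences, which depend on the constant that voom adds.

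*Fgfr1*, the receptor, had a promoter share of 9.70% and 14.1% in AGTuC. The shares in inAGTuC were 7.69%, 1.92%, 5.49% and 0.870%, and scGRO–seq ran from 0% over 2.13% to 5.56%. Both AGTuC libraries lay above all other samples, whereas inAGTuC and scGRO–seq overlapped. The difference was 2.24 ± 0.86 against scGRO–seq (adjusted p = 0.0307, limma) and 1.84 ± 0.97 against inAGTuC (adjusted p = 0.118, limma).

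The ligand and the 3 inhibitors were not called. *Fgf4* had a promoter share of 34.5% and 44.4% in AGTuC and 35.7%, 43.8%, 37.0% and 10.0% in inAGTuC, so that these groups overlapped, and ran from 9.09% over 16.7% to 42.9% in scGRO–seq. Its difference was 0.62 ± 0.93 against inAGTuC and 1.37 ± 0.84 against scGRO–seq. *Dusp6* had 40.2% and 46.8% in AGTuC, 0%, 25.0% and 30.8% in the 3 inAGTuC libraries with a UMI on it, and between 0% and 50.0% in scGRO–seq, where the highest value came from 2 UMIs in Exp156. *Spry2* had 17.8% and 21.5% in AGTuC and at most 14.3% in any other sample, with differences of 1.30 ± 0.96 and 1.41 ± 0.84. *Spry4* had 6.31% and 11.9% in AGTuC, 0%, 0%, 10.7% and 13.7% in inAGTuC and 0% to 15.4% in scGRO–seq, and its differences of 0.52 ± 1.03 and 0.90 ± 0.91 were the smallest of the 7. The 95% intervals of these 4 genes included 0 and were wide, for example −1.55 to 2.59 for *Spry4* against inAGTuC.

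Between inAGTuC and scGRO–seq, differences of the 7 genes ran from 0.03 (*Etv5*) to 0.75 (*Fgf4*), with SEs of 0.66 to 0.75. limma called 0 of 15609 genes (0.00%) in either direction, and 583 had an unadjusted p under 0.05. With the 35 scGRO–seq libraries as replicates, 18 genes were called higher and 6655 lower in inAGTuC. The promoter share over all genes was not lower in inAGTuC, at a median of 4.11% against 3.46% in the scGRO–seq batches. The part of the constant that voom adds in these calls was not tested. The calls rest on both AGTuC libraries. Without AGTuC 1 or without AGTuC 2, a single AGTuC library is left, and the spread comes from the other groups. *Etv5* was then at 2.78 to 3.04. Over all fits without 1 sample, *Etv4* over scGRO–seq ran from 2.30 to 2.86 and *Fgfr1* from 1.91 to 2.54. With the experiment number as a random block (correlation within a number of 0.590, an alternative chosen after the data were examined), *Etv5* was still called over scGRO–seq (2.92 ± 1.03, adjusted p = 0.0365, limma). *Etv5* over inAGTuC (adjusted p = 0.0686, limma), *Etv4* over scGRO–seq (adjusted p = 0.0646) and *Fgfr1* over scGRO–seq (adjusted p = 0.118) were not. Scaling promoters and bodies each to their own total, which sets a gene against all genes, moved the median of all genes to −0.59 and −0.99 and turned the split of called genes from 5930 higher and 263 lower to 96 higher and 1566 lower against inAGTuC, and from 6486 and 580 to 126 and 3416 against scGRO–seq. On that scale *Etv5* was at 0.26 and 0.04, the other 6 members were below 0, and none was called.

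The body, from which the first and last 500 bp were left out, was compared next. All 7 genes were called higher in body level in AGTuC than in scGRO–seq, and 6 of 7, all but *Fgfr1*, were called higher than in inAGTuC. The differences ran from 0.98 to 2.60 on the log2 scale against scGRO–seq and from 1.30 to 2.69 for the 6 genes called against inAGTuC. Of all 14820 genes tested, 17.4% were called higher in AGTuC than in inAGTuC (16.8% lower) and 32.2% higher than in scGRO–seq (19.8% lower), with medians of 0.19 and 0.36 over all genes and of 2.23 and 1.90 over the members. Levels are body UMIs per kb of body and per 1000000 body UMIs of the sample, so that genes of different length can be compared.

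Short genes were called more often. Of genes with a body under 5 kb, 43.9% were higher in AGTuC than in inAGTuC and 64.8% higher than in scGRO–seq, of those with 5 to 20 kb 28.2% and 50.4%, and of those with 20 kb or more 8.40% and 18.8%. *Fgf4*, *Spry2* and *Dusp6* are in the first class, *Spry4* and *Etv4* in the second and *Fgfr1* and *Etv5* in the third. The class medians over all genes were 1.36 and 1.56, 0.75 and 0.97, and −0.22 and −0.13, against 2.65 and 1.93, 2.33 and 1.91, and 0.99 and 1.02 for the members. Of the ES cell markers tested, 3 of 3, 4 of 5 and 2 of 2 in these classes were called higher in AGTuC than in inAGTuC. Over scGRO–seq, 3 of 3, 5 of 5 and 2 of 2 of these markers were called higher. Frequent calls of a higher body level were thus not particular to the 7 genes. Between inAGTuC and scGRO–seq, limma called 0 of 14820 genes (0.00%), and 803 had an unadjusted p under 0.05. The members ran from −0.74 (*Dusp6*) to 0.62 (*Fgf4*) there. Within Exp208, the number these assays share, the scGRO–seq batch lay between both inAGTuC libraries for *Spry2*, *Spry4* and *Etv5*, above both for *Fgf4*, *Dusp6* and *Etv4*, and below both for *Fgfr1*. With the experiment number as a random block, the same members were called higher in AGTuC, 6 over inAGTuC and 7 over scGRO–seq, with adjusted p-values of at most 0.0165 (limma) but for *Fgfr1* over scGRO–seq (0.0273). The part of body length and of antisense reads in the differences of the 7 genes was not tested.

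**Figure D2:**
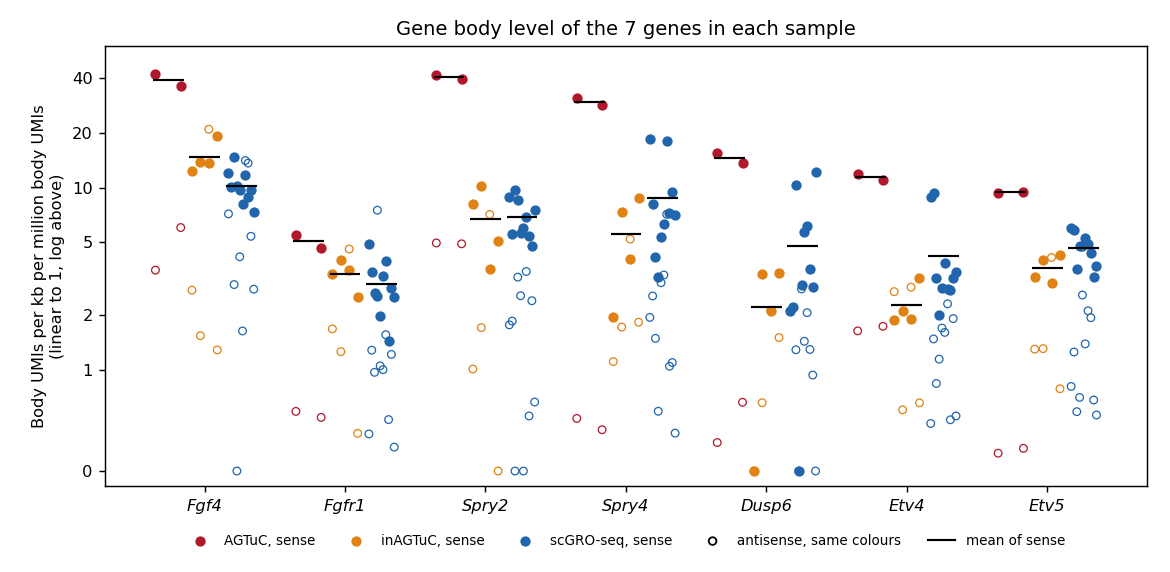
Body level of the 7 genes in each sample in body UMIs per kb per 1000000 body UMIs (y axis, linear up to 1 and logarithmic above), with filled points for sense reads, open points for antisense reads and bars for the mean of sense reads in 2 AGTuC libraries, 4 inAGTuC libraries and 10 scGRO–seq batches. The highest points are AGTuC points, those of *Fgf4* at 41.9 and 35.9 and of *Spry2* at 41.4 and 39.2.

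*Fgf4* (chr7:144861386-144865245 on GRCm38, plus strand, 3 exons) encodes the ligand. Its body level was 41.9 and 35.9 in AGTuC 1 and 2. It was 12.3, 13.8, 13.7 and 19.3 in inAGTuC 1 to 4, and ran from 7.38 (Exp264a) over a median of 9.87 to 14.7 (Exp208) in scGRO–seq. AGTuC lay above all other samples, and inAGTuC and scGRO–seq overlapped. AGTuC was higher by 1.30 ± 0.27 than inAGTuC (adjusted p = 0.00158, limma) and by 1.93 ± 0.24 than scGRO–seq (adjusted p = 4.0e-06, limma). Of the 7 genes, *Fgf4* alone had an unadjusted p under 0.05 between inAGTuC and scGRO–seq, at 0.62 ± 0.26 (unadjusted p = 0.0235, adjusted p = 0.864, limma).

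*Fgfr1* (chr8:25518759-25575718, plus strand, 19 exons) had the lowest body level of the 7 in AGTuC, at 5.48 and 4.67. The inAGTuC libraries had 3.35, 4.01, 3.53 and 2.50, and scGRO–seq ran from 1.43 (Exp260b) over 2.72 to 4.89 (Exp156). AGTuC lay above inAGTuC but overlapped with the highest scGRO–seq batch. The difference was 0.98 ± 0.27 against scGRO–seq (adjusted p = 0.00484, limma) and 0.62 ± 0.31 against inAGTuC (adjusted p = 0.121, limma), the latter not called. Without AGTuC 1, which leaves a single AGTuC library, the difference against scGRO–seq was 0.87. The lncRNA gene *Gm16159* overlaps *Fgfr1* on the other strand.

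*Spry2* (chr14:105891947-105896819, minus strand, 2 exons) and *Spry4* (chr18:38586247-38601347, minus strand, 2 exons) encode Sprouty inhibitors of receptor tyrosine kinase signalling. *Spry2* was at 41.4 and 39.2 in AGTuC, at 8.08, 10.2, 3.56 and 5.06 in inAGTuC and between 4.79 (Exp263) and 9.75 (Exp208) in scGRO–seq, with a median of 6.48. Its 2 AGTuC libraries lay far above the rest, by 2.69 ± 0.33 against inAGTuC (adjusted p = 3.1e-05, limma) and 2.60 ± 0.26 against scGRO–seq (adjusted p = 4.7e-07, limma), the largest differences of the 7. *Spry4* was at 30.8 and 28.2 in AGTuC, at 1.94, 7.33, 4.07 and 8.77 in inAGTuC and between 3.25 (Exp211) and 18.4 (Exp156) in scGRO–seq, with a median of 7.18. It was spread more widely than *Spry2* in both assays of intact nuclei. Its differences were 2.43 ± 0.42 (adjusted p = 0.00052, limma) and 2.06 ± 0.34 (adjusted p = 7.9e-05, limma).

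*Dusp6* (chr10:99263231-99267489, plus strand, 3 exons) encodes the ERK phosphatase. It was at 15.5 and 13.6 in AGTuC, from 55 and 100 UMIs. In inAGTuC it was at 0, 3.37, 2.11 and 3.38, from 0, 5, 3 and 9 UMIs, and in scGRO–seq it ran from 0 (Exp211) over 3.23 to 12.2 (Exp264a), from 69 UMIs in all. AGTuC lay above all other samples, and both assays of intact nuclei included a sample at 0. The differences were 2.65 ± 0.65 against inAGTuC (adjusted p = 0.00422, limma) and 1.90 ± 0.44 against scGRO–seq (adjusted p = 0.0014, limma).

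*Etv4* (chr11:101769748-101785310, minus strand, 15 exons) was at 11.9 and 11.03 in AGTuC, at 1.88, 2.11, 1.89 and 3.20 in inAGTuC and between 2.00 (Exp211) and 9.35 (Exp160) in scGRO–seq, with a median of 3.18. *Etv5* (chr16:22381313-22439570, minus strand, 14 exons) was at 9.37 and 9.49 in AGTuC, at 3.21, 3.99, 3.01 and 4.28 in inAGTuC and between 3.24 (Exp263) and 5.97 (Exp156) in scGRO–seq, with a median of 4.79. Both ETS factor genes thus had AGTuC values above all other samples. The differences of *Etv4* were 2.23 ± 0.36 (adjusted p = 0.000312, limma) and 1.76 ± 0.28 (adjusted p = 5.8e-05, limma). Those of *Etv5* were 1.37 ± 0.23 (adjusted p = 0.000413, limma) and 1.06 ± 0.19 (adjusted p = 0.000233, limma). In bulk samples, fewer cells that transcribe a gene and less RNA per cell cannot be told apart.

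**Figure D3:**
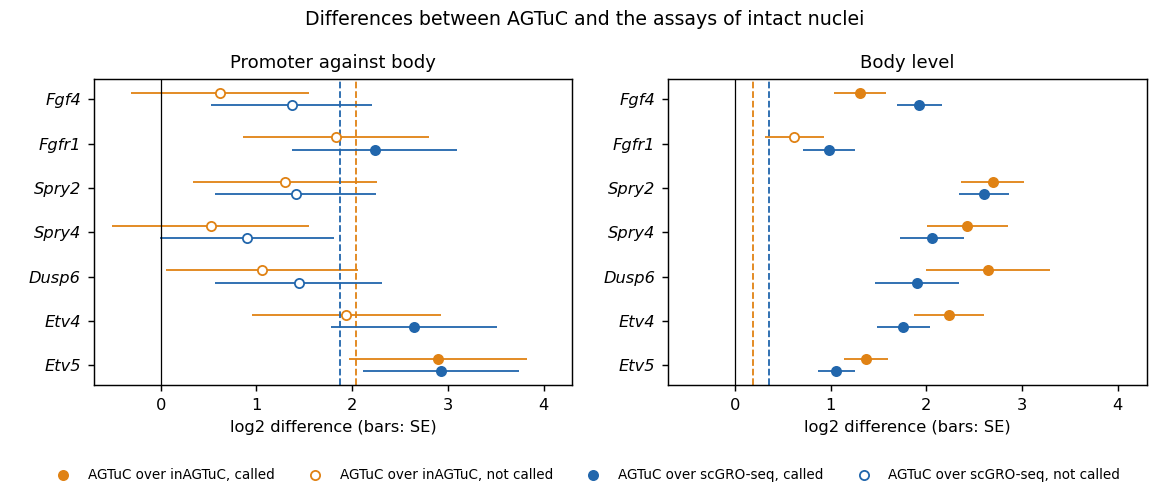
log2 differences of AGTuC over inAGTuC and over scGRO–seq for the 7 genes (x axis, bars for SE), for promoter against body (left) and for the body level (right); filled points were called at an adjusted p under 0.05 by limma and dashed lines give the medians over all genes in the same colours. In the right panel all points but that of *Fgfr1* over inAGTuC (0.62) are filled.

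Antisense reads on the same bodies were fewer than sense reads in AGTuC, at 0.0153 (*Spry4*) to 0.150 (*Etv4*) of the sense count of a gene, whereas they reached 0.333 to 0.563 in inAGTuC and 0.298 to 0.625 in scGRO–seq. For *Etv5*, AGTuC had 40 antisense UMIs beside 1814 sense UMIs, and scGRO–seq had 558 beside 1364. For *Fgf4*, scGRO–seq had 90 antisense UMIs beside 144 sense UMIs. In inAGTuC 3, the library with most antisense reads, antisense exceeded sense on 6 of the 7 genes and equalled it on *Dusp6*, with 3 UMIs on each strand. Without this library the same 6 genes were called against inAGTuC. With median-of-ratios size factors, all calls of the 7 genes were the same, while the split over all genes moved from 2572 higher and 2494 lower to 1765 and 2988 against inAGTuC, and from 4779 and 2935 to 3031 and 3788 against scGRO–seq.

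The order of body levels per kb differed between assays. In AGTuC, *Spry2* (mean 40.3) and *Fgf4* (38.9) came first with overlapping values, followed by *Spry4* (29.5), *Dusp6* (14.5), *Etv4* (11.5), *Etv5* (9.43) and *Fgfr1* (5.08), whose ranges did not overlap with those of their neighbours. In inAGTuC, *Fgf4* (14.8 ± 3.08, SD, n = 4) lay above *Spry2* (6.73 ± 2.99), *Spry4* (5.53 ± 3.10), *Etv5* (3.62 ± 0.61), *Fgfr1* (3.35 ± 0.63), *Etv4* (2.27 ± 0.63) and *Dusp6* (2.22 ± 1.59), and all neighbours after *Fgf4* overlapped. In scGRO–seq, every gene overlapped with its neighbour in the order *Fgf4* (10.2 ± 2.10, SD, n = 10), *Spry4* (8.75 ± 5.32), *Spry2* (6.90 ± 1.69), *Dusp6* (4.80 ± 3.85), *Etv5* (4.66 ± 0.93), *Etv4* (4.22 ± 2.64) and *Fgfr1* (2.94 ± 0.99). *Fgf4* exceeded 99.1% to 99.5% of 22383 genes in each assay in pooled UMIs per kb, and *Fgfr1* exceeded 87.0% to 91.8%.

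Reads were not spread evenly along the genes. The share of body UMIs in exons was 50.7% in AGTuC, 73.03% in inAGTuC and 89.6% in scGRO–seq for *Fgf4*, of whose body 72.9% is exonic. For *Fgfr1* it was 9.83%, 18.9% and 24.6%, with 7.19% of the body exonic, and for *Etv5* 5.18%, 8.69% and 6.52%, with 7.62% exonic. Of the exonic *Fgfr1* UMIs, 51 of 162 in scGRO–seq and 10 of 66 in inAGTuC came from a single stack described below, which had 0 in AGTuC. When the body was cut into 3 equal parts, the part next to the start held 55.6% of *Fgf4*, 54.8% of *Dusp6* and 48.8% of *Spry2* body UMIs in AGTuC, and 17.4%, 23.2% and 28.2% in scGRO–seq. The shares lay closer for *Spry4* (40.5% and 38.2%), *Etv4* (37.1% and 34.7%) and *Fgfr1* (27.97% and 25.4%), and for *Etv5* that of AGTuC was the lower (37.9% and 41.6%). These shares are pooled over the samples of an assay and are given as a description.

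Some scGRO–seq reads were stacked at single positions. The 6 positions below had at least 15 scGRO–seq UMIs within 3 bp on both sides and are printed 5′ to 3′ on the strand of the RNA with the position in capitals. They are shown because they tell how far single positions and batches carry the counts.
Fgf4, chr7:144863256-144863276, minus strand: ccagttacagGccaggcaccc
Fgfr1, chr8:25574842-25574862, plus strand: gggggtaaagGgccatgagct
Fgfr1, chr8:25520756-25520776, minus strand: cccatcgtcgGccaccagcaa
Etv5, chr16:22428847-22428867, minus strand: atgagttttcTtttaagggct
Etv5, chr16:22383959-22383979, minus strand: gtagaatacgGcttccttact
Etv5, chr16:22433342-22433362, plus strand: aagtctacagGcatgtgaccc

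The largest stack was antisense to *Fgfr1* in an intron 2007 bp after the start, with 93 scGRO–seq UMIs, of which 90 came from Exp211. The stack antisense to *Etv5*, in an intron 6218 bp after the start, had 77 UMIs, of which 73 came from Exp260b, and that antisense to *Fgf4*, in an exon at 1880 bp, had 43, of which 36 came from Exp260b. The sense stack of *Fgfr1* was in an exon 867 bp before the end of the gene, with 51 UMIs in 51 cells of 6 batches. The sense stacks of *Etv5*, at 10713 bp and 55601 bp in introns, had 26 UMIs, of which 25 came from Exp211, and 19 UMIs, all from Exp260b. In Exp211 the body of *Etv5* held 66 sense UMIs in all. Counting each position once per library, an alternative chosen after the data were examined, left the calls of the body level as they were and took *Fgfr1* out of the promoter calls against scGRO–seq, at 1.64.

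Among scGRO–seq batches, with 35 libraries as samples and all sense UMIs of a gene, limma called 3 of the 7 genes different between batches, *Fgfr1*, *Spry4* and *Etv4*, beside 31.8% of the 12298 genes tested. The receptor gene *Fgfr1* spanned 1.84 on the log2 scale between its lowest and highest batch (adjusted p = 0.000423, limma F-test), *Spry4* 2.50 (adjusted p = 0.000548) and *Etv4* 2.80 (adjusted p = 0.0019). *Spry4* had body levels of 18.4 in Exp156 and 18.1 in Exp260 and of at most 9.42 in the other 8 batches. *Etv4* was at 9.35 in Exp160 and 8.92 in Exp156 and at most 3.85 elsewhere, and *Fgfr1* was highest in Exp156 (4.89) and lowest in Exp260b (1.43). *Fgf4*, *Spry2*, *Dusp6* and *Etv5* were not called, with adjusted p-values of 0.68, 0.82, 0.0756 and 0.261 (limma). Exp156 had the highest summed level of the 7 genes among batches, at 7.11 UMIs per kb per 1000000, and the lowest antisense share over all bodies, at 0.198 of sense. The part of this share in the difference was not tested. Without Exp156, *Fgfr1* was not called (1.58), and without Exp160, *Dusp6* was called as well (3.45).

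In single cells, each member was seen in a minority of cells. The share of cells with at least 1 sense UMI on the gene, as a mean over 10 batches, was highest for the 2 longest genes, *Etv5* (34.8% ± 8.61, SD) and *Fgfr1* (23.5% ± 6.25), followed by *Spry4* (18.9% ± 7.05), *Etv4* (10.1% ± 5.28), *Fgf4* (6.74% ± 1.73), *Spry2* (5.85% ± 1.85) and *Dusp6* (3.27% ± 2.29). A UMI anywhere on the gene counts, so that the order follows length as well as level. In the first 10 kb after 500 bp, the order was *Spry4* (12.2% of all 2526 cells), *Etv5* (10.2%), *Etv4* (5.54%), *Fgf4* (5.50%), *Spry2* (4.71%), *Dusp6* (2.69%) and *Fgfr1* (2.41%). Over all 2526 cells, *Etv5* was seen in 938 cells, 37.1% with a 95% Wilson interval of 35.3% to 39.04%, and *Dusp6* in 93 cells. Intervals cover counting error only.

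Antisense reads on the same spans were taken as a measure of background. They can include transcription of the other strand, where *Gm16159* overlaps *Fgfr1*. They were found in 11.6% ± 7.78 (SD) of cells for *Etv5*, 10.46% ± 10.2 for *Fgfr1*, 5.11% ± 3.79 for *Spry4*, 3.64% ± 2.29 for *Etv4*, 3.09% ± 2.14 for *Fgf4*, 1.42% ± 1.19 for *Spry2* and 1.02% ± 0.82 for *Dusp6*. For every gene the mean sense share was above the mean antisense share. In single batches the sense share was at or below the antisense share for *Fgf4* in Exp260 (5.00% against 5.83%) and Exp260b (5.46% against 7.53%), for *Fgfr1* in Exp211 (25.0% against 37.5%) and for *Dusp6* in Exp160 (1.05% on both strands) and Exp211 (no cell on either). The antisense reads of 2 of these came mostly from a single stack, with 90 of 101 antisense body UMIs for *Fgfr1* in Exp211 and 36 of 37 for *Fgf4* in Exp260b, beside 34 and 24 sense body UMIs. The shares of *Fgf4* in Exp260 and of *Dusp6* in both batches are not read above background. For *Fgf4* in Exp260 this rests on few cells, 6 of 120 with a sense UMI and 7 with an antisense UMI. Its body level there was 11.7 on the sense strand and 14.1 on the antisense strand. The antisense stack of *Fgfr1* lay in 41 cells.

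Batches differed in depth, with medians of 1864 (Exp156) to 4152 (Exp236) UMIs per cell, so each cell was thinned to 1000 UMIs, below the lowest depth of a kept cell. *Etv5* was then seen in 7.44% (Exp263) to 19.5% (Exp156) of cells, with a median of 10.7%. *Fgfr1* ran from 3.42% (Exp260b) over 6.20% to 18.6% (Exp156) and *Spry4* from 2.58% (Exp208) over 5.23% to 18.3% (Exp156). Exp156, the batch with the fewest UMIs per cell, also had the highest thinned share of *Etv4* (8.47%), *Fgf4* (3.52%) and *Spry2* (2.12%), whereas *Dusp6* was highest in Exp208 (2.14%). Of all UMIs of Exp156, 65.6% lay on the sense strand of gene bodies, against 35.9% to 50.4% in the other batches, so that a cell thinned to 1000 UMIs kept more UMIs on genes there. The part of depth and of this share in the order was not tested. In Exp211 *Dusp6* was seen in 0 of 112 cells before and after thinning, with an upper Wilson limit of 3.32% before thinning. This limit is for cells with a UMI. The assay captures only a part of nascent RNA, so that it sets no limit on cells that transcribe the gene. After thinning, antisense shares had means of 0.270% (*Dusp6*) to 2.97% (*Etv5*).

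**Figure D4:**
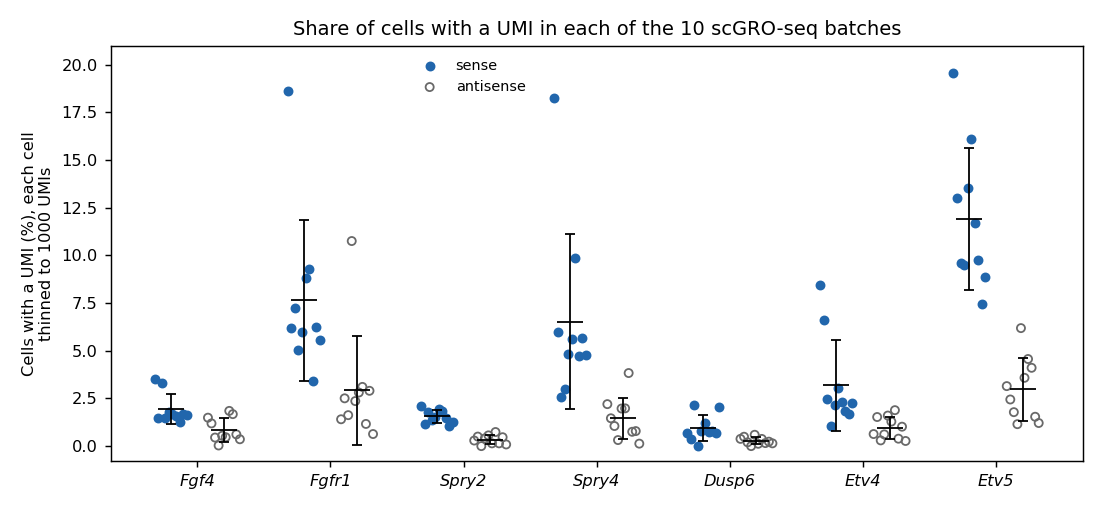
Share of cells (%) with a UMI on each gene after thinning each cell to 1000 UMIs, with 1 point per scGRO–seq batch (n = 10), filled for sense and open for antisense reads, and bars for mean ± SD. The point of Exp156 lies above the others for *Fgfr1* (18.6%) and *Spry4* (18.3%).

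Of the 2526 cells, 874 had no UMI on any of the 7 genes, 952 had UMIs on 1 gene, 485 on 2, 169 on 3 and 46 on 4 or more. Whether members were seen together in the same cells more often than their counts and the depth of cells give was examined with 1000 permutations of the cell identity of reads within each library. None of the 21 pairs was called at a one-sided permutation p under 0.05, against 1.98% of 135735 pairs of a member with any gene. The pair seen most often was *Fgfr1* with *Etv5*, in 246 cells, against a permuted mean of 257 with a central 95% of 237 to 278. *Spry4* and *Etv5* were seen in 209 cells against 210 (190 to 230). Both values lay within the permutations.

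**Figure D5:**
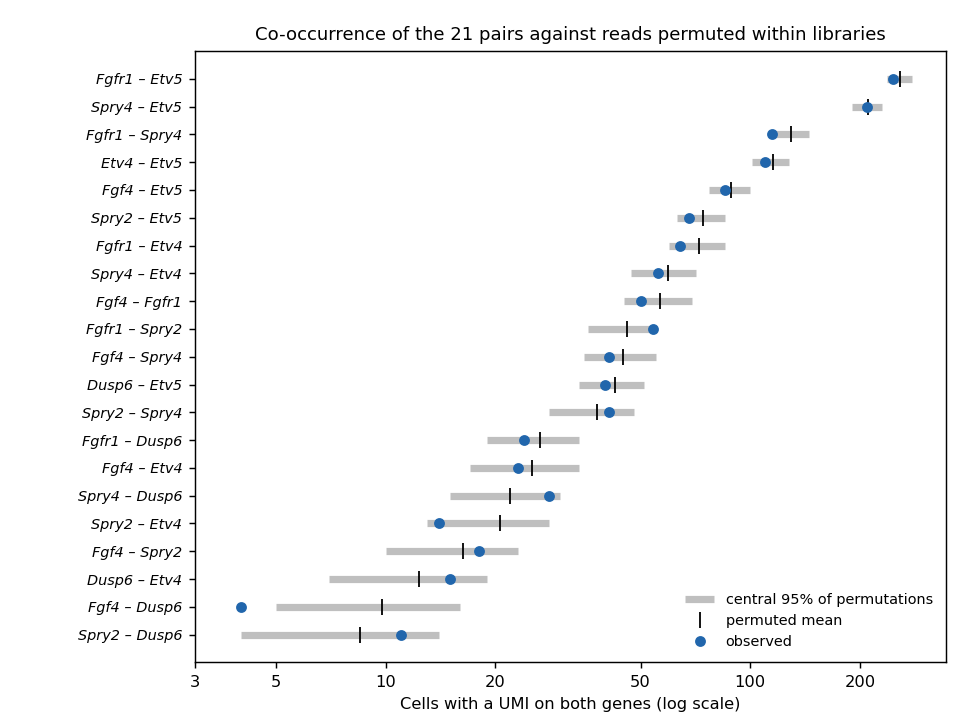
Cells with a UMI on both genes of each of the 21 pairs (x axis, log scale), observed (points), mean of 1000 permutations within libraries (ticks) and central 95% of permutations (bars). *Fgf4* with *Dusp6* is the single point outside its bar, at 4 cells.

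The highest ratios of observed to permuted cells were those of 2 inhibitor pairs, *Spry2* with *Dusp6* (11 cells against 8.51, ratio 1.29) and *Spry4* with *Dusp6* (28 against 21.9, ratio 1.28, one-sided permutation p = 0.0899). *Spry4* with *Dusp6* was above its permuted mean in 7 of 10 batches. The lowest ratios were those of *Fgf4* with *Dusp6* (4 cells against 9.77, ratio 0.409, central 95% of 5 to 16) and *Spry2* with *Etv4* (14 against 20.6, ratio 0.679). The first of these lay below the central 95%, in a direction that the one-sided test does not call. *Fgfr1* with *Spry2*, at 54 cells against 45.8, had the smallest permutation p of the 21 pairs (one-sided p = 0.0629), and was called when Exp156, Exp160, Exp260b or Exp263 was left out. *Spry4* with *Dusp6* was called without Exp208 or without Exp264a and with all deposited reads. Over all genes, the median ratio with a member was 0.896 (*Dusp6*) to 0.978 (*Spry2*), below 1.

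Cells with several UMIs on 1 member were close in number to the permutations. *Etv5* had 286 such cells against a permuted mean of 284 (265 to 303), *Fgfr1* 105 against 96.3 (84 to 109) and *Spry4* 62 against 63.6 (52 to 75). *Etv4* had 24 against 17.6, at the upper end of its central 95% of 11 to 24, and was above its permuted mean in 8 of 10 batches. *Fgf4* (11 against 10.1), *Spry2* (8 against 7.17) and *Dusp6* (2 against 2.76) had few such cells. In 14 of the 286 *Etv5* cells all UMIs lay within 50 bp of each other, and the highest number in a cell was 10. The sense stack of *Etv5* at 10713 bp held 26 UMIs in 14 cells.

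Other genes of the pathway were counted from lists of FGF ligands, receptors and adaptors, the RAS and ERK cascade, feedback inhibitors and ERK-responsive transcription factors. For promoter against body in AGTuC over scGRO–seq, 13 of 14 genes of the cascade were called higher, with a median of 3.18 against 1.87 over all genes, as were 7 of 13 receptors and adaptors, 7 of 13 inhibitors, 5 of 12 transcription factors tested and 1 of 9 ligands tested. Over inAGTuC the counts were 10, 6, 5, 3 and 0 in the same order. Beside the 41.6% and 38% of all genes called higher, the counts of the cascade lay furthest above these shares, and whether lists differ was not tested. No gene of these lists was called lower. *Nras*, a RAS protein (5.28 ± 0.84, adjusted p = 1.7e-05, limma), and *Map2k1*, the ERK kinase MEK1 (4.66 ± 0.85, adjusted p = 7.5e-05), had the highest differences over scGRO–seq, and the inhibitor *Il17rd* (2.07 ± 0.83) was among the lowest of those called. Over inAGTuC the highest were *Rasa1*, which encodes a GTPase-activating protein of RAS (5.41 ± 1.10), and the immediate early gene *Fos* (5.29 ± 1.09), and the lowest *Mapk3*, which encodes ERK1 (2.45 ± 0.95), and *Elk4*, an ETS factor gene (2.50 ± 1.00). The body of *Fos* held 5 UMIs in AGTuC and 17 in inAGTuC.

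The body level of these lists is read beside 32.2% (over scGRO–seq) and 17.4% (over inAGTuC) of all genes called higher, and 19.8% and 16.8% called lower. Over scGRO–seq, AGTuC was higher for 6 of 11 transcription factors tested, 3 of 14 cascade genes, 2 of 13 inhibitors, 2 of 13 receptors and adaptors and 1 of 8 ligands tested, and lower for 4 ligands and 2 receptors and adaptors. Over inAGTuC it was higher for 5, 1, 1, 1 and 0 genes and lower for 4 ligands, 1 receptor or adaptor and 1 cascade gene. Of the transcription factors tested, 5 have a body under 5 kb, the class with 64.8% and 43.9% of all genes called higher, and 4 of these 5 were called in both comparisons. The 4 ligands called lower were among 6 with a body of 20 kb or more. In that class, 29.7% (over scGRO–seq) and 25.7% (over inAGTuC) of all genes were called lower. The receptors and adaptors and the cascade gene called lower were in this class too. Differences between lists were not tested. The immediate early gene *Ier2* had the highest difference in both comparisons, at 4.74 ± 0.77 over inAGTuC and 4.38 ± 0.52 over scGRO–seq, followed by the Sprouty gene *Spry1* over inAGTuC (3.15 ± 0.68) and the adaptor gene *Frs3* over scGRO–seq (3.17 ± 0.51). These rest on few UMIs outside AGTuC. *Ier2* had 271 body UMIs in AGTuC, 7 in inAGTuC and 16 in scGRO–seq. *Spry1* had 84 in AGTuC and 4 in inAGTuC, and *Frs3* had 140 in AGTuC and 21 in scGRO–seq. *Fgf5* (−4.25 ± 1.12 and −5.47 ± 1.03) and *Fgf13* (−3.20 ± 0.76 and −4.07 ± 0.70), which encodes an FGF that is not secreted, had the lowest. These 2 genes had 1 and 20 body UMIs in AGTuC, against 152 and 606 in scGRO–seq. The mean body level of *Fgf13* was 0.0125 in AGTuC, 0.113 in inAGTuC and 0.212 in scGRO–seq. Median summed levels of the fibroblast markers were 0.129, 0.224 and 0.255 in the same order. The level of *Fgf13* is thus not read above background in any assay. Its differences are not read as lower transcription in AGTuC.

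The genes whose body level followed that of the summed 7 genes most closely over the 16 samples, among 5839 genes with at least 200 body UMIs in scGRO–seq, were *Nacc1* (Pearson r = 0.932), *Epha2* (0.932), *Cacng7* (0.929), *Emc8* (0.925) and *Sall4* (0.924). The points share their libraries and depth, and the 2 AGTuC libraries lay highest. Without AGTuC the values were 0.770, 0.818, 0.781, 0.709 and 0.713 over 14 samples, and no p-value is given.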

How the data were processed

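Each library came as a list of reads that the authors had made by cutting adaptors with cutadapt, removing ribosomal reads, mapping to mm10 with Bowtie2 and removing duplicates by UMI with UMI-tools; versions are not given in the sources used here. The only measured column in the deposited lists is a score, the mapping quality of each read, and each row was counted as 1 UMI. Molecules listed in several libraries were left out (20.8% of reads of the libraries used, and 28.9% of the scGRO–seq reads among them). Cells were kept with at least 1000 UMIs and 750 features, in libraries with at least 24 such cells. RefSeq genes of GRCm38 were counted by strand, and UMIs of cells were summed per batch. Groups came from the labels. Differences were tested with limma 3.58.1 (voom, R 4.3.3) over all genes with at least 50 UMIs, with Benjamini–Hochberg adjustment, in 1 fit of 16 samples (2 AGTuC, 4 inAGTuC, 10 scGRO–seq batches). Promoter against body was an interaction with a term per sample. Co-occurrence used 1000 permutations within libraries, whose smallest p is 0.000999. The scripts were tested on simulated data. Alternatives for window, starts, scale, filter, reads, mapping quality and replicates were run, and those counting each position once per library, taking the experiment number as a random block (duplicateCorrelation) or leaving out scGRO–seq batches in the promoter and body comparisons were chosen after seeing the data. The 7 genes were named in full; of the pathway lists, genes are named by the 2 highest and 2 lowest differences among those called, of which 1 is not reported here. The genes and lists were chosen with earlier results of these data known. Statistics were computed with Python 3.11.15, numpy 2.4.6, pandas 2.3.3, scipy 1.17.1 and numba 0.67.0, and figures drawn with matplotlib 3.10.9. The scGRO–seq libraries outside the 10 batches were not used here, and 1 of them held 99.7% of its molecules in common with an inAGTuC library. That library is inAGTuC 4, which was kept in the inAGTuC comparisons although nearly the same list carries both labels. Its body counts differed from those of the other inAGTuC libraries by a chi-square of 8.24 to 17.1 per degree of freedom. Among those others the values were 5.25 to 6.10.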

Additional observations from a re-analysis of the deposited data

Results flagged for a closer look

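Among 35 checks of the highest and lowest sample of a group against the rest, 6 values lay apart by Dixon's test, and chance marks about 1 in 20 groups. All 6 were higher than the rest of their group. On the strand opposite to *Fgf4*, inAGTuC 3 had 20.9 body UMIs per kb per 1000000, and the next library 2.73. Opposite to *Etv5*, the same library had 4.13, and the next 1.31. Opposite to *Fgfr1*, Exp211 had 7.51, of which 90 of 101 UMIs lay in a single stack, and the next batch 1.56. Opposite to *Spry4*, Exp260 had 7.13, and the next batch 3.31. After thinning to 1000 UMIs, *Fgfr1* was seen in 18.6% of the cells of Exp156, and in 9.28% in the next batch. *Spry4* was seen in 18.3% of the cells of Exp156 after thinning, and in 9.86% in the next batch. The causes of these values were not tested.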

How the results depend on the processing

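No paired analysis was possible because the replicate numbers of the groups only name libraries, and, among the 16 samples compared, experiment numbers tie samples of different groups in Exp208 alone. With the experiment number of the labels as a random block, 0 members were called for promoter against body over inAGTuC and 1 over scGRO–seq, and over all genes 3176 and 3474, while the body calls of the members were as before, beside 3242 and 5670 of all genes, and 0 were called between inAGTuC and scGRO–seq. With promoter and body each scaled to their own total, 0 members were called in either promoter comparison, and the log2 differences fell below 0 over inAGTuC for *Fgf4* (−2.01), *Fgfr1* (−0.80), *Spry2* (−1.34), *Spry4* (−2.17), *Dusp6* (−1.57) and *Etv4* (−0.72), and over scGRO–seq for *Fgf4* (−1.49), *Fgfr1* (−0.64), *Spry2* (−1.48), *Spry4* (−1.97), *Dusp6* (−1.38) and *Etv4* (−0.22). With the first 300 bp as promoter, 2 members, *Etv5* and *Fgfr1*, were called over inAGTuC, and with libraries as replicates 1 member, *Etv5*, was called over scGRO–seq. Leaving out 1 library or batch gave at most 1 member call for promoter against body over inAGTuC and at most 3 over scGRO–seq. Without AGTuC 1 or without AGTuC 2, a single AGTuC library is left, and promoter calls are not read there. *Spry4* over inAGTuC was at −0.10 with all deposited reads and ran from −0.30 (without inAGTuC 2) to 1.05 (without inAGTuC 4) when 1 sample was left out. Body calls stayed at 6 over inAGTuC and at 6 to 7 over scGRO–seq, and calls between batches at 2 to 4.

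Co-occurrence gave 1 called pair with all deposited reads and 0 to 1 with 1 batch left out. *Spry4* with *Etv5* moved about its permuted mean, at a ratio of 1.0034 with 1000 UMIs alone, 1.023 with all deposited reads and 0.974 to 1.016 with 1 batch left out. The mean share of cells moved by over 1 SD to 4.92% for *Fgf4*, 2.13% for *Fgfr1* and 9.77% for *Etv5* in the first 10 kb after 500 bp, and to 9.99% for *Fgf4* and 8.61% for *Spry2* with all deposited reads. The causes were not tested.

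Over all genes, promoter calls moved from 6193 to 1662 over inAGTuC and from 7066 to 3542 over scGRO–seq with own totals. With libraries as replicates they were 3827 over scGRO–seq, 64.9% of them higher against 91.8%, and moved from 0 to 6673 between inAGTuC and scGRO–seq, of which 6655 were lower in inAGTuC (median log2 difference of −1.39). The median promoter share over all genes was not lower in inAGTuC (4.11%) than in the scGRO–seq batches (3.46%). Body calls moved from 7714 to 12448 over scGRO–seq with a minimum of 1 UMI, where the split turned to 4976 higher and 7472 lower (2626 and 4883 over inAGTuC). Between inAGTuC and scGRO–seq, body calls moved from 0 to 3 with libraries as replicates and to 107 without inAGTuC 4. Counts over all genes without AGTuC 1 or without AGTuC 2, which leave a single AGTuC library, are not given. Calls between batches moved from 3908 to 1955 without Exp236 and to 5883 with 1000 UMIs alone. The promoter values rest on few UMIs, with 3 to 34 per member over all inAGTuC libraries and 4 to 26 over scGRO–seq, against 125 to 254 in AGTuC.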

Other observations

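Transcription on the opposite strand just upstream of the members was seen in AGTuC at *Dusp6*, with 69 antisense UMIs in the 500 bp before the start, at *Etv5*, with 39, and at *Spry4*, with 22. The other 4 genes had 5 to 12 UMIs there, and all 7 together had 165 in AGTuC, 15 in inAGTuC and 13 in scGRO–seq. These counts are not scaled to depth and are no comparison between assays. *Etv4* had 39 antisense UMIs within its first 500 bp in AGTuC, against 1 to 4 at each of the other 6 genes.

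Among the genes of the pathway lists, which leave out the 7 genes, the receptor gene *Fgfr3* had the highest scGRO–seq body count per kb, at 52.8 UMIs per kb, but 512 of its 757 UMIs came from Exp263, and without this batch it had 17.1 UMIs per kb and came 8th of 63 genes. Its level ran from 0.476 over a median of 3.06 to 110.3 UMIs per kb per 1000000 among batches, and was 0.766 and 0.802 in AGTuC. Markers of primitive endoderm had summed levels of 0.203 to 0.218 UMIs per kb per 1000000 in AGTuC, 0.187 to 0.841 in inAGTuC and 0.0973 to 0.644 in scGRO–seq, with antisense levels of up to 0.0298, 0.711 and 0.478 on the same genes. Fibroblast markers had sense levels of up to 0.130, 0.475 and 0.596, so that the levels of primitive endoderm markers in inAGTuC and scGRO–seq are not read above background. Markers of the epiblast had 2.47 to 2.51, 1.49 to 4.62 and 1.18 to 3.70, beside antisense levels of up to 0.243, 2.04 and 1.88, with *Fgf5* at 1 UMI over both AGTuC libraries.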
